A study of Mus musculus with 18 samples.

Results

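AMP-activated protein kinase (AMPK) is the kinase by which cells answer a fall in energy charge. It works as a trimer of a catalytic alpha subunit, a beta subunit that holds the complex together and binds glycogen, and a gamma subunit that binds adenine nucleotides. The kinase LKB1 activates it by phosphorylating the activation loop of the alpha subunit, and CAMKK2 does so in response to calcium. In fat cells AMPK is known for restraining fatty acid synthesis and for phosphorylating lipases, and caspase-6 is one of its substrates. The 8 genes described here were chosen by symbol from the 25124 genes of each count table and were all found. They are the alpha subunits Prkaa1 and Prkaa2, the beta subunits Prkab1 and Prkab2, the gamma subunits Prkag1 and Prkag2, the LKB1 gene Stk11, and Camkk2. The remaining gamma subunit gene, Prkag3, is known as the isoform of fast skeletal muscle and is used only for comparison.

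Poly(A) RNA was sequenced from inguinal white fat (iWAT), epididymal white fat (eWAT) and brown fat (BAT) of male mice. Wild-type (WT) mice were compared with mice lacking caspase-6 in all tissues (C6KO), both bred from heterozygous parents on a C57BL/6J background, with littermates and cagemates in a cohort. Mice of both genotypes ate a diet with 60% of its calories from fat for 12 weeks, begun at 10 to 14 weeks of age, so that no lean group was included. Each depot had 3 libraries of each genotype, which makes 18, described by the submitters as biological replicates. Nothing used here states which depots came from the same mouse. The BAT libraries were the shallowest, with total counts of 7803108 to 12428683. Those of iWAT held 16506034 to 19043523 and those of eWAT 16717201 to 19139694.

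Casp6, the gene targeted in C6KO, separated the genotypes in each depot, with all C6KO libraries below all WT libraries. Its level in iWAT was 12.9 ± 1.58 RPKM in WT and 4.50 ± 0.904 in C6KO (mean ± SD, n = 3 each). The edgeR test called the eWAT difference, a log2 fold change of -1.85 (SE 0.19, adjusted p = 0.0132). It did not call that of iWAT, -1.51 (SE 0.20, adjusted p = 0.0751), or that of BAT, -1.50 (SE 0.33, adjusted p = 0.0671). Leaving out WT replicate 1, 2 or 3 of eWAT raised its adjusted p to 0.0645, 0.0828 and 0.0938. Other settings called Casp6 in iWAT, at adjusted p of 0.0423 with the replicate block, 0.0132 with no filter on low counts, 0.0133 in the fit of all 18 libraries and 0.00127 without C6KO replicate 3. In BAT it was called at 0.0380 with no filter, 0.00681 in the fit of all 18, 0.0378 with a muscle covariate and 0.0429 without WT replicate 2. DESeq2 called Casp6 in each depot. The tables sum reads over the exons of a gene, so the position of the 26 to 141 reads left in C6KO libraries is not known.

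The brown adipocyte markers summed to 6909 to 16967 CPM in BAT and to 41.1 to 105 in the white depots, which set BAT apart as labelled. Mesothelial markers (6 genes), which tell the visceral eWAT from iWAT, summed to 45.3 to 209 CPM in eWAT and to at most 6.86 elsewhere. Skeletal muscle transcripts set the BAT libraries apart from each other. A list of 14 muscle genes, among them Acta1, Myh4 and Ckm, summed to 41043 CPM in WT replicate 2, beside 142 in WT replicate 1 and 1798 in WT replicate 3. In C6KO the sums were 6360, 466 and 7847 CPM, with no muscle marker at 0 in any BAT library. In the white depots the same sum was 51.1 to 631 CPM. Where leaving out WT replicate 2 changed a call of a member or turned its direction, the value without it is given below or among the alternatives.

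The subunit isoforms are paralogues, so their reads can be told apart only where their sequences differ. The longest identical stretch between the coding sequences of each pair is shown because a read would have to fall inside it to belong to either gene. The sequences come from GENCODE transcripts of GRCm38, the assembly also called mm10, and are written on the strand of the gene.
Prkaa1 and Prkaa2: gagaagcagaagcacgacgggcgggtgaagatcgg
Prkab1 and Prkab2: ggagagcatcagtacaagttctt
Prkag1 and Prkag2: atcctcaagttcctc
The first is 35 bases long and lies at chr15:5143908-5143942 in Prkaa1 and at chr4:105109758-105109792 in Prkaa2. The second is 23 bases long, at chr5:116020408-116020430 in Prkab1 and at chr3:97663619-97663641 in Prkab2. The third is 15 bases long, at chr15:98814518-98814532 in Prkag1 and at chr5:24873893-24873907 in Prkag2. No window of 50 bases of the Prkaa1, Prkaa2, Prkab1, Prkab2, Stk11 or Camkk2 transcripts occurred in the transcript of another gene. Prkag1 was the exception among the 8. The annotated antisense gene B130046B21Rik covers 866 of its exon bases, or 52.4%, and its RNA could not be told from Prkag1 RNA if strand was not used in counting, which the sources do not state. In Prkag2 the shared part was 7 of 3282 windows, from the antisense gene Prkag2os2.

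The genes lie on 5 chromosomes in the authors' mm10 coordinates. Prkaa1 is at chr15:5143861-5181899 and Prkag1 at chr15:98812797-98831508, while Prkaa2 is at chr4:105029650-105109898. Prkab1, Prkag2 and Camkk2 share chromosome 5, at chr5:116013590-116024428, chr5:24862735-25100642 and chr5:122731170-122779410. Stk11 is at chr10:80115795-80130679 and was counted on the transcript NR_126043, a variant of the locus that is not protein coding, so its counts are those of the exons in that variant. Prkab2 is at chr3:97658212-97673067, on the chromosome of Casp6 and 32.2 Mb from it. Camkk2 was counted on a transcript of 4828 bases in iWAT and of 4870 bases in eWAT and BAT, and the others on the same transcript throughout.

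Levels are given as RPKM, the count per kilobase of counted transcript, scaled for library size after TMM scaling of all 18 libraries together. This scale is meant for comparing genes and depots. The limits given above for Prkag1, Stk11 and Camkk2 apply to it, as does the dependence on scaling between depots given below. Prkag1 and Stk11 had the highest mean in every group. In WT iWAT the order was Prkag1 (36.9 ± 0.980), Stk11 (29.1 ± 1.48), Prkag2 (15.5 ± 0.904), Prkaa1 (14.1 ± 0.716), Prkab1 (12.9 ± 0.934), Camkk2 (8.49 ± 0.783), Prkab2 (6.09 ± 0.0153) and Prkaa2 (1.54 ± 0.445). Prkag2, Prkaa1 and Prkab1 were neighbours whose libraries overlapped, and the other neighbours were apart. WT eWAT had nearly the same order, except that Prkag2 stood below Prkaa1 and Prkab1, and only those last 2 overlapped there. WT BAT had Prkag1 at 49.2 ± 5.600, Stk11 at 44.5 ± 2.86 and Prkag2 at 30.2 ± 3.57, all above Prkab1 at 17.96 ± 1.73 and Prkaa1 at 17.8 ± 3.28. Its lowest genes, Prkaa2, Prkab2 and Camkk2, overlapped with their neighbours. The smallest count of any member was 58, for Prkab2 in WT replicate 1 of BAT, and Prkaa2 had 72 to 166 counts in eWAT.

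**Figure D1:**
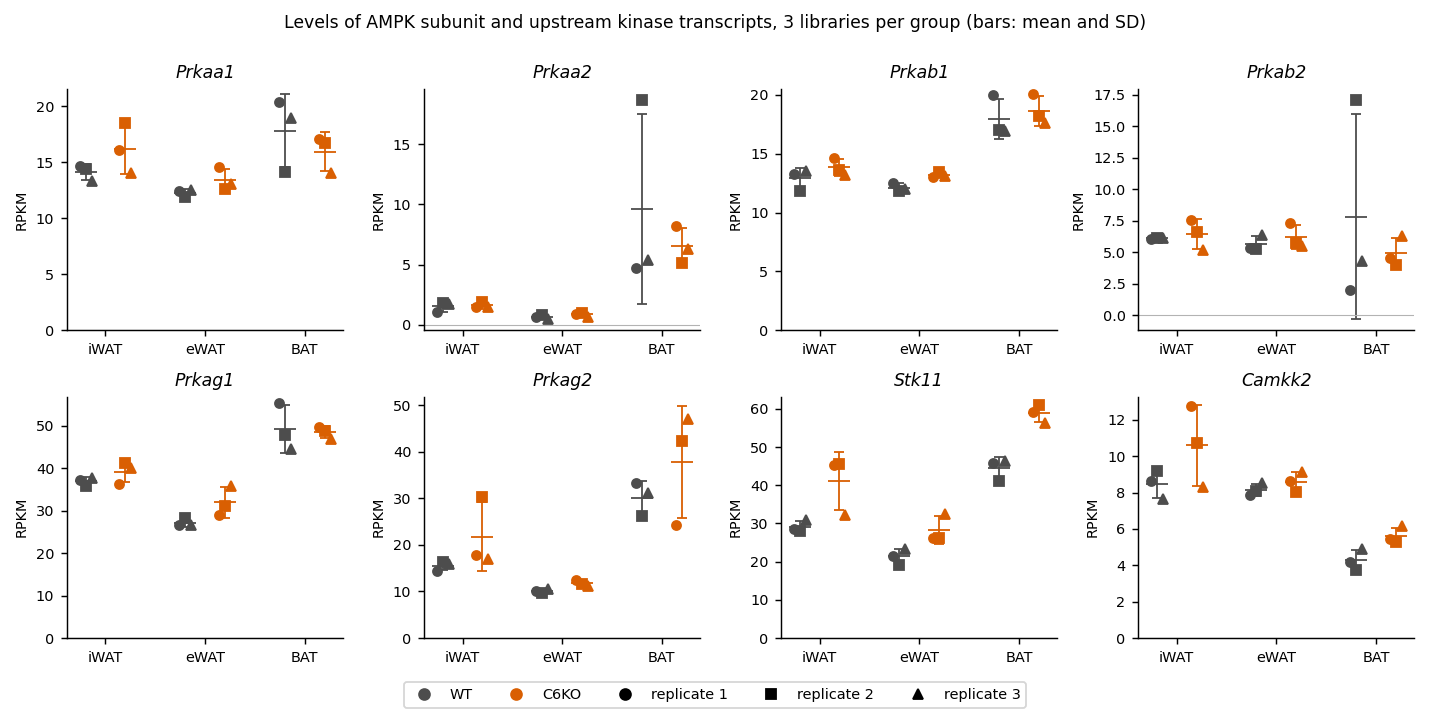
Level of each of the 8 genes in RPKM (vertical axes) by depot, with one point per library, marker shape for the replicate number, and mean and SD of 3 libraries as bars. Stk11 in C6KO sits above WT in each depot, and the square of WT replicate 2 in BAT stands at 18.7 for Prkaa2 and 17.1 for Prkab2.

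None of the 8 genes was called different between C6KO and WT in any depot. A call needed an adjusted p below 0.05 over all genes tested and a fold change of at least 1.5. All 8 passed the filter on low counts in each depot. Of all tested genes, 0.0275% were called in iWAT, against 0.746% for eWAT and 1.24% for BAT, so 0 of 8 was near this background. An unadjusted p below 0.05 was found for 1 member in each white depot and for 2 in BAT, while 16.5%, 17.6% and 13.2% of all genes had one in iWAT, eWAT and BAT. DESeq2 called 0 in each depot. In iWAT the median log2 fold change of the 8 was 0.16, beside 0.03 over all genes tested, and 8 of 8 estimates were above 0. The eWAT median was 0.18, beside -0.0060, again with 8 of 8 above 0, and the BAT median 0.03, beside -0.03, with 4 of 8 above 0. Libraries did not overlap, with C6KO higher, for 2 of 8 in iWAT (10.9% of all genes), 4 of 8 in eWAT (12%) and 2 of 8 in BAT (8.07%). For 0 of 8 was C6KO lower without overlap, beside 12.2%, 11.2% and 12.1% of all genes. For 13 of the 24 combinations of gene and depot the 95% interval lay wholly inside a 1.5-fold change in either direction. These included Prkaa1, Prkab1 and Prkag1 in each depot.

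Stk11 had the lowest p of the 8 in each depot. Its product LKB1 is the main activating kinase of AMPK in most tissues. In iWAT its level was 28.6, 28.1 and 30.8 RPKM in WT and 45.3, 45.5 and 32.3 in C6KO. The third C6KO library was the lowest of its group and still above all WT libraries. In eWAT the values were 21.5, 19.2 and 23.4 RPKM in WT and 26.2, 26.3 and 32.5 in C6KO. The BAT libraries of WT held 45.9, 41.2 and 46.4 RPKM, against 59.2, 60.9 and 56.4 in C6KO. The groups did not overlap in any depot. Stk11 in iWAT had a log2 fold change of 0.50 (SE 0.15, 95% interval 0.15 to 0.85, adjusted p = 0.195). The eWAT value was 0.41 (SE 0.12, 0.13 to 0.69, adjusted p = 0.124), and that of BAT was 0.41 (SE 0.14, 0.09 to 0.74, adjusted p = 0.246). The intervals lay above 0, but no adjusted p passed the threshold. DESeq2 gave adjusted p from 0.0507 to 0.0836. Without C6KO replicate 3, Stk11 was called in iWAT, at 0.63 (SE 0.11, adjusted p = 0.0119).

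Since Stk11 was seen to be higher in each depot, the mean of its 3 effects was tested afterwards in a fit of all 18 libraries. That mean was 0.43 on the log2 scale (SE 0.08, 95% interval 0.27 to 0.60, adjusted p = 0.00266). It stayed under the 1.5-fold minimum, so Stk11 was not called, while 5.46% of all genes were. With no minimum, 10.9% of genes passed, and 3.93% passed in the upward direction. The test was chosen after its values were seen and uses the same libraries, so it is no independent evidence. The fit takes the 18 libraries as independent, and its SE and interval are not adjusted for depots that may come from the same mouse. Prkag2 had a mean effect of 0.34 (SE 0.13, adjusted p = 0.0927) and Camkk2 one of 0.26 (SE 0.08, adjusted p = 0.0539). The other members ranged from -0.16 to 0.10.

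Marker sums of other cell types differed between the genotypes in the same libraries. Macrophage markers (15 genes, none at 0) summed to 2369 to 2719 CPM in WT and 634 to 1757 in C6KO in iWAT. In eWAT they were at 7969 to 9999 and 4960 to 6755, and in BAT at 929 to 1297 and 374 to 557. Adipocyte markers (8 genes, none at 0) were at 25248 to 28122 CPM in WT and 33906 to 38754 in C6KO in iWAT, and at 9316 to 11095 and 12934 to 16744 in eWAT. In BAT they overlapped. Of single adipocyte genes, 7 of 8 had a log2 fold change above 0 in iWAT and 8 of 8 in eWAT. The sum of progenitor and fibroblast markers (7 genes) was lower in C6KO, at 4706 to 4844 CPM in WT against 1814 to 3317 in iWAT. It was at 6161 to 7896 against 5018 to 5949 in eWAT, and at 1244 to 1802 against 779 to 1016 in BAT. Single genes had a log2 fold change below 0 for 6 of 7 in iWAT, 7 of 7 in eWAT and 6 of 7 in BAT. Endothelial markers (8 genes) overlapped in iWAT, and their sum was higher in C6KO in eWAT, at 572 to 662 CPM in WT against 862 to 980. In BAT the sums were barely apart, at 1017 to 1373 CPM in WT against 1381 to 1432. Without overlap, 1 of 8 genes was higher in BAT (8.07% of all genes) and 7 of 8 in eWAT (12%). Hepatocyte markers (5 genes) overlapped in iWAT and were higher in C6KO in eWAT, at 3.49 to 9.66 CPM in WT against 20.8 to 61.8. In BAT their sum was at 1.68 to 3.65 CPM in WT against 3.96 to 7.01, with up to 3 of the 5 genes at 0 in a library. Only 1 of the 5 was tested in BAT, and it was lower in C6KO, at a log2 fold change of -0.25, and not called. The mesothelial sum overlapped in the white depots and was higher in C6KO in BAT, at 1.12 to 1.32 CPM against 5.21 to 6.22. Each BAT library had 2 to 5 of the 6 mesothelial genes at 0. Only 1 of the 6 was tested in BAT, so the difference there rests on few genes near 0. C6KO replicate 3 of iWAT, the lowest C6KO library for Stk11, had the highest macrophage sum of its group. The other depots differed from this. In eWAT, C6KO replicate 1 was the lowest of its group both for Stk11 (26.2 RPKM) and for the macrophage sum (4960 CPM). In BAT, C6KO replicate 3 was the lowest for Stk11 and in the middle of its group for the macrophage sum. The part of these cells in the Stk11 difference was not tested, and in whole tissue fewer cells of a type and less RNA per cell cannot be told apart.

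Camkk2 had values in BAT of 4.20, 3.76 and 4.89 RPKM in WT and 5.46, 5.28 and 6.14 in C6KO. These did not overlap, with a log2 fold change of 0.40 (SE 0.17, adjusted p = 0.344). Without WT replicate 2 the estimate was 0.34 (SE 0.19, adjusted p = 0.471). In iWAT the Camkk2 groups overlapped, at 8.65, 9.19 and 7.65 RPKM in WT against 12.8, 10.7 and 8.31 in C6KO, and the log2 fold change was 0.33 (SE 0.17, adjusted p = 0.371). In eWAT it was 0.08 (SE 0.10, adjusted p = 0.764).

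**Figure D2:**
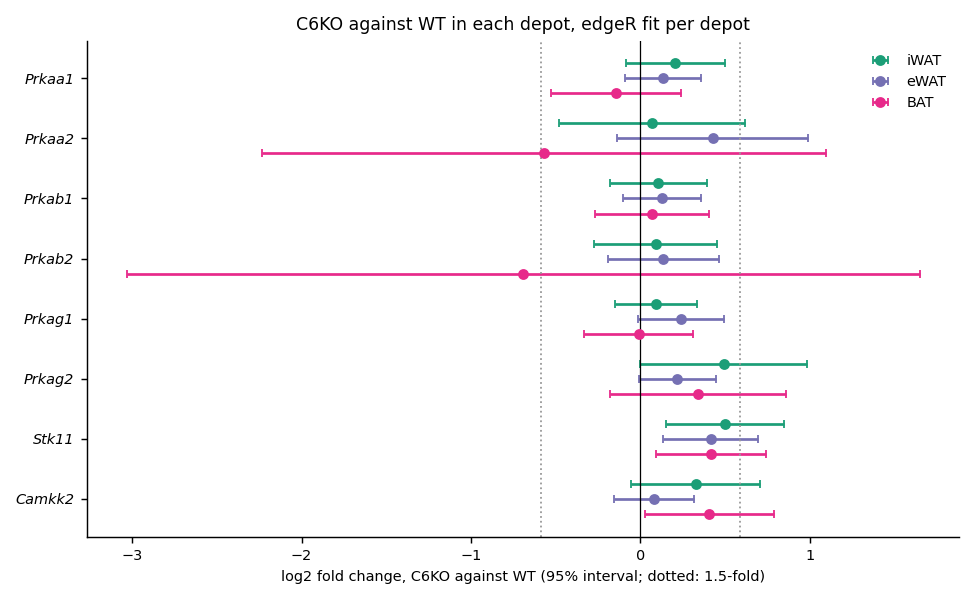
Log2 fold change of C6KO against WT (horizontal axis) for each gene, with 95% intervals from the edgeR fit of each depot and dotted lines at a 1.5-fold change. The Stk11 intervals lie above 0 in the 3 depots, and the BAT intervals of Prkaa2 (-2.23 to 1.097) and Prkab2 (-3.03 to 1.65) are the widest of all.

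Among the gamma subunits, Prkag2 was uneven within C6KO. In iWAT it was at 14.5, 16.2 and 15.8 RPKM in WT and at 17.9, 30.3 and 16.97 in C6KO, so that C6KO replicate 2 stood far above its group. The groups did not overlap, and the log2 fold change was 0.49 (SE 0.22, adjusted p = 0.306). Without that library the iWAT value was 0.17, the lowest of those that left out a library. In BAT Prkag2 was at 33.2, 26.2 and 31.1 RPKM in WT and 24.3, 42.3 and 47.0 in C6KO, where 1 C6KO library was below all WT libraries. The difference of 0.34 (SE 0.23, adjusted p = 0.586) did not pass. In eWAT the groups were narrow and apart, at 10.2, 9.73 and 10.5 against 12.4, 11.7 and 11.2 RPKM, with a log2 fold change of 0.22 (SE 0.10, adjusted p = 0.302).

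Prkag1 differed by 0.09 (SE 0.11, adjusted p = 0.708) in iWAT, by 0.24 (SE 0.11, adjusted p = 0.319) in eWAT and by -0.01 (SE 0.14, adjusted p = 0.983) in BAT. Its eWAT libraries were at 26.7, 28.3 and 26.6 RPKM in WT and 28.8, 31.1 and 35.9 in C6KO, without overlap. The antisense overlap described above applies to each of these values. Prkag3 was at 1.31, 1.22 and 1.86 RPKM in WT eWAT and 2.23, 3.06 and 2.18 in C6KO, a log2 difference of 0.77 (SE 0.24, adjusted p = 0.141).

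For the catalytic subunits no difference passed either. Prkaa1, which made up most alpha transcript in 17 of 18 libraries, all but WT replicate 2 of BAT, had log2 fold changes of 0.21 (SE 0.13, adjusted p = 0.458) in iWAT, 0.13 (SE 0.10, adjusted p = 0.570) in eWAT and -0.14 (SE 0.17, adjusted p = 0.776) in BAT. Without WT replicate 2 the BAT value was -0.26 (SE 0.17, adjusted p = 0.542). Its eWAT groups were apart on the scale of all 18 libraries, at most 12.5 against at least 12.6 RPKM, and overlapped when scaled within the depot. Prkaa2 was at 0.667, 0.793 and 0.464 RPKM in WT eWAT and 0.920, 0.993 and 0.668 in C6KO, which overlapped, with a log2 fold change of 0.43 (SE 0.25, adjusted p = 0.436). In iWAT it was 0.07 (SE 0.24, adjusted p = 0.912).

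The BAT values of Prkaa2 and Prkab2 rested on 1 library. Prkaa2 was at 4.76, 18.7 and 5.38 RPKM in WT and 8.18, 5.17 and 6.32 in C6KO, and Prkab2 at 1.99, 17.1 and 4.33 in WT against 4.51, 3.97 and 6.30 in C6KO. WT replicate 2 was the highest library for both genes by a wide margin. With it, the log2 fold change of C6KO against WT was -0.57 (SE 0.64, adjusted p = 0.772) for Prkaa2 and -0.69 (SE 0.88, adjusted p = 0.796) for Prkab2. Without it, the estimates turned to 0.41 (SE 0.21, adjusted p = 0.463) and 0.66 (SE 0.34, adjusted p = 0.462). With the muscle marker sum as a covariate, added after the data were seen, they were -0.38 (SE 0.24, adjusted p = 0.489) and -0.24 (SE 0.28, adjusted p = 0.729).

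Prkab2 took the same order over the 6 BAT libraries as the muscle marker sum. From the lowest sum to the highest, 142, 466, 1798, 6360, 7847 and 41043 CPM, it was at 1.99, 3.97, 4.33, 4.51, 6.30 and 17.1 RPKM. Prkaa2 over the same libraries was at 4.76, 5.17, 5.38, 8.18, 6.32 and 18.7 RPKM, so its order differed by 1 exchange. Prkag3 had 97 counts in WT replicate 2, 28 in C6KO replicate 3 and 4 to 11 in other BAT libraries. It had the fewest, 2, in C6KO replicate 1, whose muscle sum was 6360 CPM. In iWAT Prkag3 was at 1.89 to 5.79 RPKM, beside 3.22 in WT replicate 2 of BAT. Prkab1 in BAT, at 19.95, 18.2, 16.9, 20.1, 17.6 and 16.99 RPKM, did not follow the order of the muscle sum. The order was noticed in these libraries and is a description only.

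**Figure D3:**
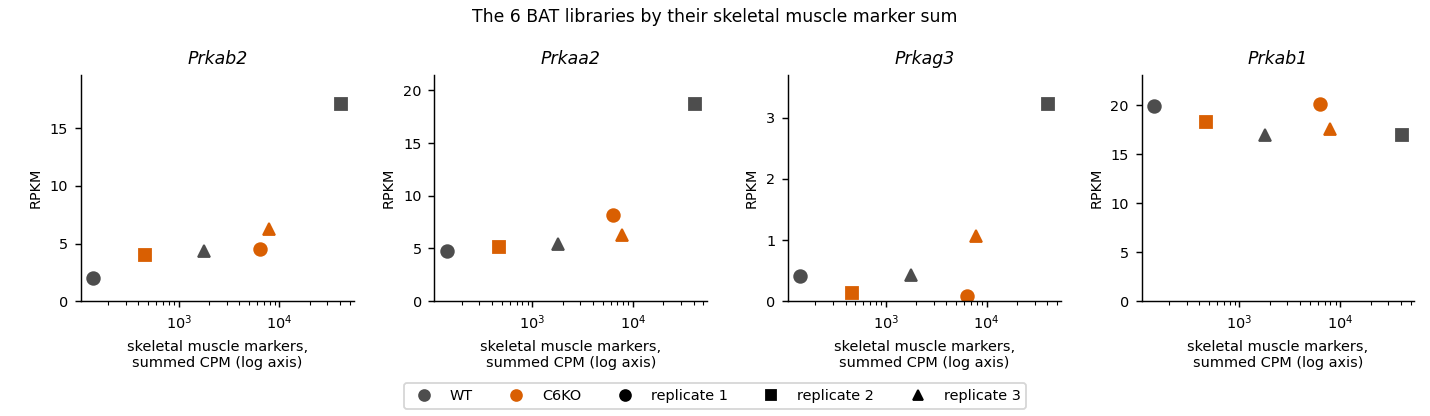
RPKM of Prkab2, Prkaa2, Prkag3 and Prkab1 (vertical axes) against the summed CPM of 14 skeletal muscle markers (horizontal log axis) in the 6 BAT libraries, coloured by genotype. Prkab2 runs from 1.99 to 17.1 along the axis, while Prkab1 stays between 16.9 and 20.1.

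The beta subunits were close between the genotypes in white fat. Prkab1 had log2 fold changes of 0.11 (SE 0.13, adjusted p = 0.714) in iWAT, 0.13 (SE 0.10, adjusted p = 0.599) in eWAT and 0.07 (SE 0.15, adjusted p = 0.882) in BAT, all with intervals inside 1.5-fold. In eWAT its libraries were apart, at 12.5, 11.8 and 12.02 RPKM in WT and 13.04, 13.5 and 13.1 in C6KO. Prkab2 was at 6.07, 6.10 and 6.09 RPKM in WT iWAT and 7.57, 6.61 and 5.15 in C6KO, a difference of 0.09 (SE 0.16, adjusted p = 0.821). In eWAT it was 0.13 (SE 0.15, adjusted p = 0.710).

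Whether the C6KO effect differed between depots was tested as an interaction over 15866 genes. It was called for 0 of 8 members in each of the 3 contrasts, beside 0%, 0.183% and 0.536% of all genes for eWAT against iWAT, BAT against iWAT and BAT against eWAT. DESeq2 also called 0 members, and 0 had an unadjusted p below 0.05. The lowest adjusted p among the members was 0.564.

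Levels were also compared between depots within each genotype. These contrasts came from 1 edgeR fit of the 18 libraries, and each depot's libraries enter more than 1 of them. Each depot was counted in a table of its own, so a difference in handling between depots cannot be told apart from the depot. In WT eWAT against iWAT, 2 of 8 members were called, both lower, where 25.7% of all genes were called and 12.9% as lower. In WT BAT against iWAT, 4 of 8 were called (38.7% of all genes), 3 as higher (20.1%) and 1 as lower (18.7%). In WT BAT against eWAT, 5 of 8 were called (48.6%), 4 as higher (25%) and 1 as lower (23.6%). C6KO had 1 of 8 in eWAT against iWAT (24.6%), as lower (10.5%). It had 3 of 8 in BAT against iWAT (38.2%), 2 as higher (18%) and 1 as lower (20.2%), and 5 of 8 in BAT against eWAT (50.1%), 4 as higher (23.6%) and 1 as lower (26.5%). Without the fold minimum the WT counts were 4, 6 and 7 of 8 (32.1%, 47.6% and 57% of all genes) and the C6KO counts 3, 6 and 6 (31.1%, 46.5% and 58.6%). Scaling to total counts moved the median log2 fold change of all genes by 0.14, -0.14 and -0.29 in the 3 WT contrasts, and fold changes below shift with it. The share of calls that were higher went from 49.9% to 63.6%, from 51.8% to 41.2% and from 51.4% to 36.7%.

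Prkaa2 rose most in BAT. In WT its log2 fold change was 2.64 against iWAT (SE 0.44, adjusted p = 0.000196) and 3.91 against eWAT (SE 0.47, adjusted p = 4.91e-06). Without WT replicate 2 of BAT these were 1.72 (SE 0.26, adjusted p = 5.39e-05) and 2.98 (SE 0.27, adjusted p = 9.82e-08), so the calls held. In C6KO they were 2.02 (SE 0.43, adjusted p = 0.00141) and 2.93 (SE 0.45, adjusted p = 5.25e-05). All BAT libraries, at 4.76 RPKM or more, were above all white fat libraries, which reached at most 1.91. In WT, eWAT was below iWAT by -1.26 (SE 0.44, adjusted p = 0.0409), and this call was lost under total-count scaling (adjusted p = 0.0676), with no filter on low counts (adjusted p = 0.0622) and when any of 5 WT libraries was left out, with values from -1.44 to -1.08. Leaving out iWAT WT replicate 1 kept it. In C6KO the difference of -0.90 (SE 0.43, adjusted p = 0.131) was not called.

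Prkag2, whose product is the long gamma isoform known from heart, was also higher in BAT. The WT values were 0.96 against iWAT (SE 0.22, adjusted p = 0.00185) and 1.57 against eWAT (SE 0.22, adjusted p = 1.3e-05). The C6KO values were 0.80 (SE 0.22, adjusted p = 0.00615) and 1.69 (SE 0.22, adjusted p = 5.37e-06). In C6KO, however, iWAT and BAT overlapped, since iWAT replicate 2 was at 30.3 RPKM and BAT replicate 1 at 24.3. Prkag2 was lower in eWAT than in iWAT, by -0.62 in WT (SE 0.22, adjusted p = 0.0400) and by -0.89 in C6KO (SE 0.22, adjusted p = 0.00525). The WT call was lost with total-count scaling, at -0.47 (adjusted p = 0.108), with at least 10 counts in every library, at -0.56, and when any 1 of iWAT WT replicates 1, 2 and 3 or eWAT WT replicates 1, 2 and 3 was left out, at -0.66 to -0.59 with adjusted p of 0.0634 to 0.110. The C6KO call was lost without iWAT replicate 2, at -0.57 (adjusted p = 0.0426), under the fold minimum.

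Stk11 in WT rose in BAT by 0.61 against iWAT (SE 0.14, adjusted p = 0.00154) and by 1.06 against eWAT (SE 0.14, adjusted p = 5.01e-06). The first lies near the fold minimum of 1.5. It fell under it without iWAT WT replicate 2, BAT WT replicate 1 or BAT WT replicate 3, at 0.58 in each, with total-count scaling, at 0.46, and with at least 10 counts in every library, at 0.54. In C6KO, BAT against eWAT was called at 1.05 (SE 0.14, adjusted p = 4.54e-06), and BAT against iWAT had 0.52 (SE 0.14, adjusted p = 0.00476), under the minimum. Without C6KO replicate 1 or 2 of iWAT the latter was called, at 0.60 in each. The eWAT to iWAT difference was -0.45 in WT and -0.53 in C6KO, called in neither, and the latter was called at -0.68 without iWAT C6KO replicate 3 and at -0.64 without eWAT C6KO replicate 3.

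Prkag1 rose in BAT against eWAT, by 0.86 in WT (SE 0.11, adjusted p = 3.74e-06) and by 0.60 in C6KO (SE 0.11, adjusted p = 0.000137). Total-count scaling gave 0.56 and 0.34, both under the fold minimum. The C6KO call was also lost with DESeq2 (0.58), with its size factors in edgeR (0.58), with at least 10 counts in every library (0.53) and without eWAT C6KO replicate 1 or 2 or BAT C6KO replicate 1, at 0.53 to 0.58. Against iWAT the values of 0.42 in WT and 0.31 in C6KO had adjusted p of 0.00442 and 0.0263 and stayed under the minimum.

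With all libraries, Camkk2 alone among the 8 was called lower in BAT. Its log2 fold change in WT was -0.98 against iWAT (SE 0.15, adjusted p = 4.9e-05) and -0.93 against eWAT (SE 0.15, adjusted p = 4.38e-05), and in C6KO -0.90 (SE 0.15, adjusted p = 8.54e-05) and -0.61 (SE 0.15, adjusted p = 0.00172). The BAT libraries, at 3.76 to 6.14 RPKM, were all below the white fat libraries, at 7.65 to 12.8. The last of these calls fell under the fold minimum without eWAT C6KO replicate 3 or BAT C6KO replicate 2, at -0.57 in each. The counted transcript differs by 42 bases between iWAT and the other depots, and between eWAT and BAT it is the same.

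Prkaa1 and Prkab1 were higher in BAT than in eWAT in WT, by 0.53 (SE 0.14, adjusted p = 0.00318) and 0.56 (SE 0.11, adjusted p = 0.000258), under the fold minimum. Prkaa1 against iWAT was at 0.34 (SE 0.14, adjusted p = 0.0540), and without BAT WT replicate 2 at 0.48 (SE 0.13, adjusted p = 0.00625), under the minimum. Without that library both genes were called against eWAT, at 0.68 and 0.60, and Prkab1 was also called without eWAT WT replicate 1 (0.59) or BAT WT replicate 3 (0.60). Prkab2 turned with that 1 library. With it, the BAT to iWAT and BAT to eWAT values in WT were 0.37 (SE 0.49, adjusted p = 0.559) and 0.48 (SE 0.49, adjusted p = 0.428). Without it they were -0.93 (SE 0.27, adjusted p = 0.00957) and -0.82 (SE 0.27, adjusted p = 0.0154), both called as lower in BAT. Without that library, 8 of 8 members were called in BAT against eWAT, 6 higher and 2 lower, beside 49.2% of all genes, and 5 of 8 in BAT against iWAT, beside 39%. In C6KO, Prkab2 was at -0.39 (SE 0.50, adjusted p = 0.553) and -0.33 (SE 0.50, adjusted p = 0.595).

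**Figure D4:**
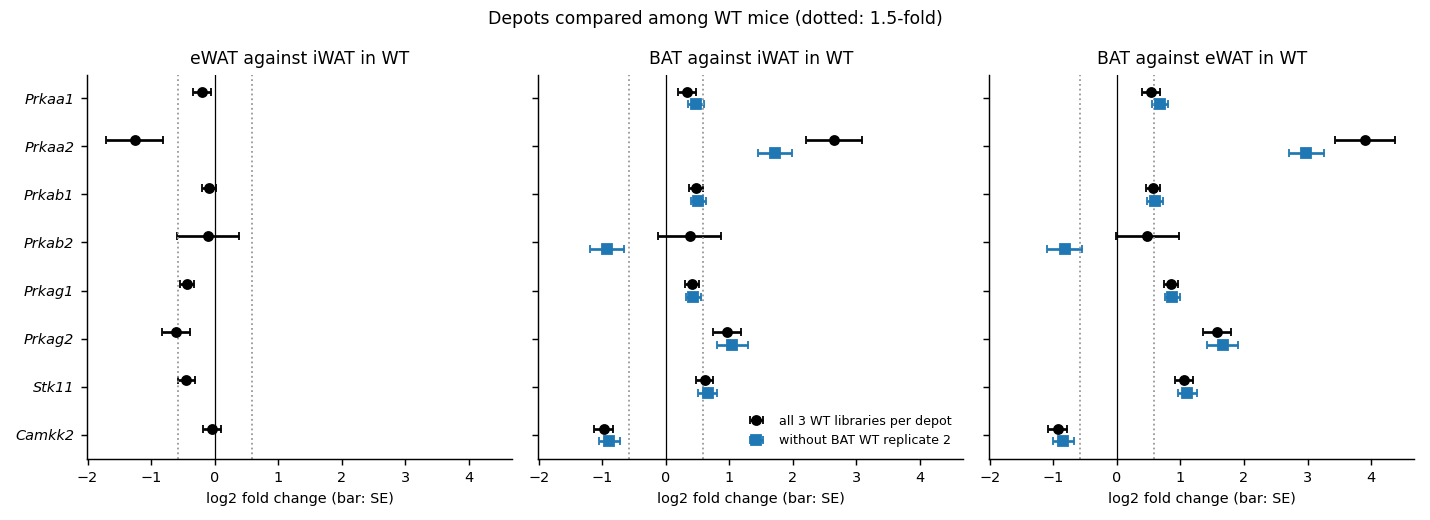
Log2 fold change between depots among WT mice (horizontal axes, bars are SE), with all libraries (circles) and without BAT WT replicate 2 (squares), and dotted lines at 1.5-fold. In BAT against eWAT, Prkab2 goes from 0.48 to -0.82 and Prkaa2 from 3.91 to 2.98. Prkaa1 (0.53 to 0.68) and Prkab1 (0.56 to 0.60) cross the 1.5-fold line there, and the others move little.

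The isoform shares give the same depots another reading, as the percent of an isoform in the summed RPKM of its subunit. Prkaa1 made up 88.2 to 93.4% of alpha transcript in iWAT and 92.7 to 96.4% in eWAT, but 43.1 to 81.1% in BAT. The lowest BAT share was that of WT replicate 2, and the other 5 BAT libraries were at 67.7% or more. Prkab1 made up 49.8 to 90.9% of beta transcript in BAT, beside 65.9 to 72.0% in iWAT and 64.2 to 70.4% in eWAT. In BAT, WT replicate 2 was again lowest and the others were at 73.6% or more. Prkag1 made up 49.9 to 67.2% of Prkag1 and Prkag2 together in BAT, beside 57.6 to 71.9% in iWAT and 69.9 to 76.2% in eWAT. Summed RPKM of Prkag1 and Prkag2, without Prkag3, had medians of 53.9, 39.6 and 82.0 in iWAT, eWAT and BAT. These were above those of alpha (15.9, 13.3 and 24.7) and beta (19.5, 18.5 and 23.0). The antisense overlap of Prkag1 applies to the gamma shares and sums. Prkag2 alone had WT means of 15.5, 10.1 and 30.2 RPKM in iWAT, eWAT and BAT.

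With all libraries, the shares of the genotypes overlapped in each depot. C6KO minus WT was 0.81 percentage points for alpha, 0.52 for beta and -5.47 for gamma in iWAT, then -1.07, -0.08 and 0.13 in eWAT, and 3.67, 5.65 and -5.10 in BAT. Exact two-sided permutation p-values were 0.2 to 1, and adjusted over the 9 tests they were all 1. With 3 against 3 the smallest p possible is 0.1, so this test could not reach the threshold. Without BAT WT replicate 2 the BAT differences of alpha and beta turned to -8.47 and -6.16, and the alpha shares no longer overlapped, at 81.1 and 77.9% in WT against 67.7, 76.4 and 68.9% in C6KO.

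**Figure D5:**
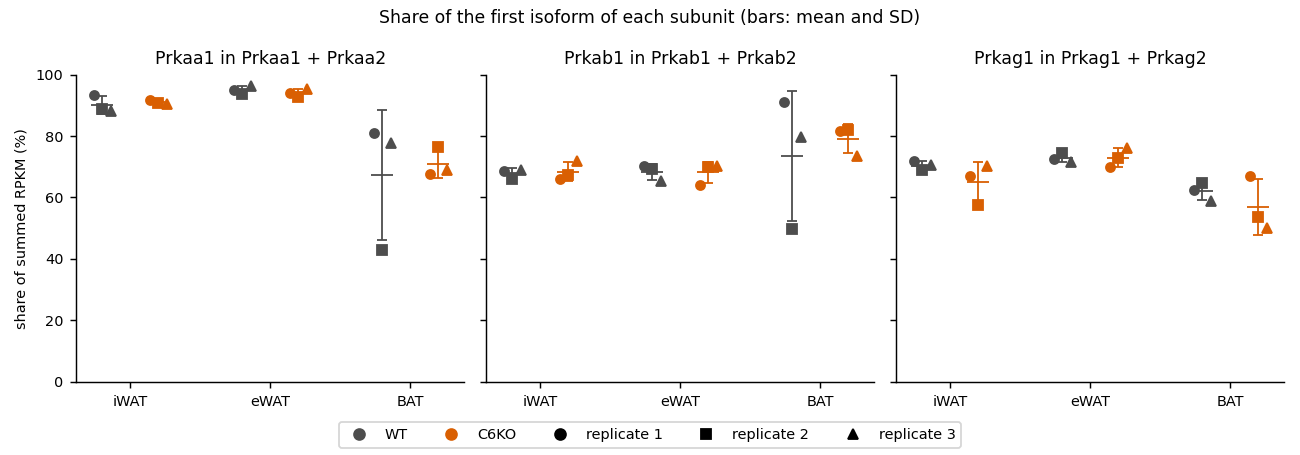
Percent of the first isoform in the summed RPKM of each subunit (vertical axis) by depot and genotype, with one point per library and mean and SD as bars. Alpha is at 88.2% or more in white fat, and the square of BAT WT replicate 2 is the lowest point for alpha (43.1%) and beta (49.8%).

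The wider pathway was followed through lists of known partners. Of 19 genes for the LKB1 complex and other regulators of AMPK, all were tested in each depot. Among them 1 was called, Sesn2 in eWAT, where 0.746% of all genes were called. Sesn2 encodes a stress-induced sestrin, and it was higher in C6KO by 0.78 on the log2 scale (SE 0.14, adjusted p = 0.0468). The call ended without any of the eWAT WT replicates 1, 2 and 3 or C6KO replicates 1 and 3, with adjusted p of 0.0676 to 0.190, with total-count scaling (adjusted p = 0.0501) and in the fit of all 18 libraries (adjusted p = 0.336). The partners that LKB1 needs, the pseudokinases Strada and Stradb and the scaffolds Cab39 and Cab39l, were not called. Sesn1, another sestrin gene and the lowest of the list in eWAT, had -0.51 (SE 0.13, adjusted p = 0.0786). The list's median log2 fold change was 0.08, 0.09 and 0.00089 in iWAT, eWAT and BAT. Its extremes were Camkk1 at 0.47 and Fnip2 at -0.72 in iWAT and Flcn at 0.63 and Sesn3 at -0.49 in BAT. DESeq2 called Fnip2 lower in iWAT, Sesn2 in eWAT and Flcn higher in BAT. Over all genes it called 674 of 14292 in iWAT, 618 of 15479 in eWAT and 545 of 14833 in BAT. The same shares stand beside its calls in the lists below.

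Of 29 AMPK substrates, all tested, Lipe was called higher and Casp6 lower in eWAT, where 0.746% of all genes were called. Casp6 is the gene deleted in C6KO, so its fall follows from the design. In iWAT and BAT 0 were called. An unadjusted p below 0.05 was found for 8, 6 and 3 of 29 in iWAT, eWAT and BAT, beside the 16.5%, 17.6% and 13.2% of all genes. Casp6 is among these in each depot. Lipe, hormone-sensitive lipase and also one of the adipocyte markers, had a log2 fold change of 0.72 (SE 0.12, adjusted p = 0.0432). It was not called without eWAT WT replicates 1, 2 or 3 or C6KO replicates 1 or 3, at adjusted p of 0.0529 to 0.187, or in the fit of all 18 libraries (adjusted p = 0.0895). Acacb, an acetyl-CoA carboxylase that AMPK inhibits, had 1.24 (SE 0.20, adjusted p = 0.113) in iWAT, 0.74 (SE 0.15, adjusted p = 0.0533) in eWAT and 1.03 (SE 0.22, adjusted p = 0.0661) in BAT. DESeq2 called Acacb and the lipase gene Pnpla2 higher and Casp6 lower in each depot, and Lipe higher in eWAT. The list's medians were 0.12, 0.11 and 0.11.

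The other lists had no call by edgeR. Of 12 kinases related to AMPK and activated by LKB1, 11 were tested in each depot, with estimates from Nuak2 at -0.98 to Sik2 at 0.52 in iWAT, from Nuak2 at -0.39 to Sik2 at 0.52 in eWAT, and from Nuak2 at -1.17 to Brsk1 at 0.59 in BAT. An unadjusted p below 0.05 was found for 3, 3 and 1, and DESeq2 called Nuak2 in iWAT. Adiponectin and its receptors and adaptors, 6 genes, had 3, 3 and 0 below 0.05, beside the same shares of all genes. Adipoq is also one of the adipocyte markers, whose sums were higher in C6KO in both white depots. Their extremes were Adipor2 at 0.90 and Appl1 at 0.14 in iWAT, Cdh13 at 0.75 and Appl2 at -0.14 in eWAT, and Adipor2 at 0.17 and Appl1 at -0.42 in BAT. DESeq2 called Adipor2 in iWAT, and Adipoq, Adipor2 and Cdh13 in eWAT, all higher. Of 11 enzymes of adenine nucleotides, which set the ligands of the gamma subunit, 9 were tested in each white depot and 11 in BAT, with 2, 0 and 2 below 0.05. Ak4 at 0.90 and Aprt at -0.78 were the extremes in iWAT, Ak3 at 0.21 and Aprt at -0.22 in eWAT, and Ak4 at 0.49 and Ampd1 at -1.99 (SE 2.13) in BAT. Ampd1, the AMP deaminase of skeletal muscle, had 1411 counts in WT replicate 2 and 2 to 226 in the other BAT libraries, and without that library its estimate turned to 1.92 (SE 1.73, adjusted p = 0.706). DESeq2 called 0 of them.

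The genes whose pattern was most like each member's were found by Pearson correlation of log2 CPM over the 18 libraries. These share depots and depth, so differences between depots enter the values. For Prkab2, which was not called between depots with all libraries, BAT WT replicate 2 was at 17.1 RPKM and every other library at most at 7.57. Stk11 was nearest to Hbs1l (r = 0.982), Inca1 (0.973) and Eif2b5 (0.971). Prkag1 was nearest to Slc25a26 (0.9749), Pttg1 (0.966) and Tmem11 (0.965). For Prkag2 they were Kyat3 (0.971), Dpyd (0.963) and Fbxo3 (0.962). Prkaa2 had Dcaf11 (0.971), Mfn1 (0.969) and Pm20d2 (0.966), and Prkab1 had Agpat3 (0.971), Samm50 (0.969) and Suds3 (0.969). Camkk2, which was lowest in BAT, was nearest to Adam15 (0.959), Stx16 (0.929) and Rai14 (0.925). The lowest values belonged to Prkab2, with Dtna (0.927), Sema6c (0.897) and Nexn (0.894), and to Prkaa1, with Ggps1 (0.895), Zfp979 (0.890) and 1110032A03Rik (0.888). Among the members themselves, deviations of the 18 libraries from their group means had their highest positive correlations for Prkaa2 and Prkab2 (r = 0.74) and for Stk11 and Camkk2 (r = 0.60), and their lowest for Prkaa1 and Prkab2 (r = -0.64). BAT WT replicate 2 was the highest library for Prkaa2 (18.7 RPKM) and Prkab2 (17.1), and the lowest of BAT WT for Prkaa1 (14.1). These correlations were not computed without it.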

How the data were processed

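The authors aligned reads to mm10 with STAR and counted reads on exons with HOMER, 1 transcript per gene, and the deposited values are whole-number counts, without normalization, in 1 table per depot. Versions and strandedness are not given in the sources used here. From the counts, edgeR 4.0.16 (limma 3.58.1, R 4.3.3) was run with filterByExpr, TMM scaling and robust quasi-likelihood tests: per depot for C6KO against WT, and on all 18 libraries for depots and interactions. A call took a 1.5-fold change and a p under 0.05 after Benjamini-Hochberg adjustment over all genes tested. Standard errors come from the F statistic. Isoform shares were compared by exact permutation tests (scipy 1.17.1). Scripts were tested on simulated data. Alternatives were DESeq2 1.42.0, other scalings and filters, a replicate block and each library left out. All 8 members were to be described, and list genes were named where called or at the extremes among those with a mean of at least 1 CPM. The members and lists were chosen with earlier results of these data known. For 2619 genes, Camkk2 among the members, the counted transcript differs between tables. Figures used matplotlib 3.10.9 in Python 3.11.15. Member counts went down to 58 per library, and the 3 libraries per group limit the precision. Intervals cover the spread among libraries.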

Additional observations from a re-analysis of the deposited data

How the results depend on the processing

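Counts of members called kept within 1.5 times of the values given except as follows. With no fold minimum, 4 members were called in eWAT against iWAT in WT, 3 in C6KO, 6 in BAT against iWAT in C6KO and 1 in the mean over depots. Counts for eWAT against iWAT in WT went to 0 with total-count scaling and to 1 with no filter or with at least 10 counts in every library. Leaving out 1 library gave 0 to 1 in C6KO against WT in iWAT, 0 to 1 and 0 to 2 in eWAT against iWAT in WT and in C6KO, and 5 to 8 in BAT against eWAT in WT. Estimates near 0 changed sign. Total-count scaling gave 0.055 for Prkab1, 0.038 for Prkab2 and 0.10 for Camkk2 in eWAT against iWAT in WT, and the filter of 10 counts gave 0.0077 for Camkk2. Prkag1 in BAT, C6KO against WT, was 0.0084 with DESeq2 size factors, 0.019 with no filter, 0.011 with 10 counts and 0.010 with DESeq2. It was 0.00017 without BAT WT replicate 2. Without BAT WT replicate 2 and BAT C6KO replicate 3 together, a choice made after seeing the data, C6KO against WT was 0.44 for Prkaa2, 0.45 for Prkab2, 0.034 for Prkag1 and -0.15 for Sesn2. Adding Prkag3 to the gamma sum gave -1.07 percentage points in eWAT. The cause of these changes was not tested. Among all alternatives for single genes, 989 values kept direction and call, 47 kept their direction and lost a call, 30 kept it and gained one, and 27 changed sign, of which 2 were then called (Prkab2 in both BAT contrasts of WT without BAT WT replicate 2).

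Over single libraries left out, C6KO against WT ranged from -0.15 to 0.20 for Prkaa2, -0.046 to 0.21 for Prkab2 and -0.014 to 0.44 for Sesn2 in iWAT. In BAT it ranged from -0.86 to 0.41 for Prkaa2, -1.10 to 0.66 for Prkab2, -0.040 to 0.087 for Prkag1 and -0.20 to 0.32 for Sesn2. In WT, Camkk2 ranged from -0.12 to 0.0069 in eWAT against iWAT, and Prkab2 from -0.93 to 0.82 in BAT against iWAT and -0.82 to 0.92 in BAT against eWAT. Share differences ranged from -0.14 to 2.46 points for alpha and -1.26 to 1.79 for beta in iWAT, from -1.57 to 1.93 for beta and -1.49 to 1.65 for gamma in eWAT, and from -8.47 to 10.5 for alpha and -6.16 to 14.4 for beta in BAT.

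The replicate numbers were not taken as pairs. The same-number correlations of deviations within depots averaged 0.05, 0.07 and -0.26 in iWAT, eWAT and BAT, and in none was every pair above 0.1. Across depots of a genotype the averages were -0.0020 to 0.12, in most sets above those of other numbers. With the replicate block, the counts were 0 in each depot for C6KO against WT and 2, 4 and 5 between depots in WT, as without it. Over all genes edgeR called 4, 111 and 168 in iWAT, eWAT and BAT, against 62, 414 and 113 with the replicate block, and DESeq2 674, 618 and 545.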
